A study of Homo sapiens with 12 samples.

Results

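MiR-25 mimic and control mimic were compared 48 h after transfection in LX-2 cells, by counting the mRNA of 199 genes of a stem cell signalling panel. The comparison used the samples that the labels name miR-25 or Control, A to C, at 48 h, 6 of the 12 samples of the series. LX-2 is an immortalised human hepatic stellate cell (HSC) line with an activated phenotype, so every sample came from 1 line. All cells received 10 pmol/ml of a synthetic miRNA duplex with Lipofectamine LTX: miR-25 mimic in the miR-25 group (n = 3), and in the control group (n = 3) a non-specific mimic derived from a Caenorhabditis elegans miRNA. The letter marks a transfection pair, that is a control and a miR-25 sample to which the labels give the same transfection efficiency. It was 0.42 in pair A, 0.61 in pair B and 0.65 in pair C. The study read this efficiency from a separate well of each plate, which received a fluorescein-labelled control miRNA, and not from the samples themselves. MiR-25 itself is not on the panel. Its level relative to the control of the pair (set to 1) is given in the labels as 347.45, 482.36 and 681.22 in pairs A, B and C, so both the efficiency and the miR-25 level were lowest in pair A. Ratios were not corrected for transfection efficiency.

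MiRNAs are short RNAs that guide Argonaute proteins to partly complementary mRNAs, most often through the seed of the miRNA, and lower the stability or translation of these mRNAs. In the liver, activated HSCs are the principal collagen producers, and Notch, Wnt and Hedgehog signalling are known to take part in their activation. In Notch signalling a ligand on a neighbouring cell (a Jagged or Delta-like protein) triggers ADAM and γ-secretase cleavage of the receptor, whose freed intracellular domain binds RBPJ in the nucleus. Wnt ligands bind Frizzled receptors and either protect β-catenin from destruction or act through small GTPases and kinases, and Hedgehog ligands release Smoothened, which activates the GLI transcription factors.

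The mature sequence of miR-25-3p is shown first because it defines the treatment. Capitals mark the seed, bases 2 to 8 from the 5′ end. In RefSeq (GRCh38.p14) it is encoded at chr7:100093571-100093592 on the minus strand.
hsa-miR-25-3p: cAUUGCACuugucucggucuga
Each panel probe pair reads 100 bases of its mRNA, given for 193 of the 199 genes. These windows are shown for FGF1 (the gene that rose) and PLAU (the gene that fell with the smallest p-value). They are also shown for CD44 (a matrix receptor) and the Notch receptors NOTCH1 and NOTCH3, none of which passed the test below. CXCL12, which fell and passed it, is left out. The choice was limited to windows taken to lie in coding sequence.
FGF1: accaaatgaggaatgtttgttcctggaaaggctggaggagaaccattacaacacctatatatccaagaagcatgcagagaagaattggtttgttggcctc
PLAU: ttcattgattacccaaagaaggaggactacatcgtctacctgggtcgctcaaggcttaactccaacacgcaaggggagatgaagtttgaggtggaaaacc
CD44: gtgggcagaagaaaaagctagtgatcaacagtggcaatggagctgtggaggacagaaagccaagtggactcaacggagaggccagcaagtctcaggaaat
NOTCH1: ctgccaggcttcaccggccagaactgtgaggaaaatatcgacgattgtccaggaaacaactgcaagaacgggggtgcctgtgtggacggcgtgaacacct
NOTCH3: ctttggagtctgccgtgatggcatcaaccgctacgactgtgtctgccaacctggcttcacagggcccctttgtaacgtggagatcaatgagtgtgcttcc
The complement of the seed, GTGCAAT on the mRNA strand, was in 0 of the 193 windows, which allows a share of up to 1.55%. The complement of bases 2 to 7, which is 6 bases long, was in 3 windows (1.55%), those of MME, CTBP2 and PPP2R5C. A window is a small part of its mRNA, and the rest of the transcripts was not searched.

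At 48 h the counts summed over the 199 genes were 107377 to 183272 in the control and 155334 to 200821 in the miR-25 samples, below the 321243 to 409581 of the 24 h samples. In pair A the miR-25 total was 1.45 times that of its control, against 1.13 and 1.10 in pairs B and C, whereas the spiked-in positive control probes differed by only 1.05, 0.906 and 1.03 times. Counts were therefore scaled to the panel total, and a ratio below is the scaled count with miR-25 over that in the control of the same pair. All 6 genes chosen as LX-2 markers (COL1A1, CDH2, CD44, PLAU, CXCL12 and FGF2) were above background in every sample. They made up 7.36% to 9.08% of the control counts and 5.91% to 8.66% of the miR-25 counts. Of 17 markers of other lineages 1, CD4, was above background in all 6 samples, 7 were above it in some and 9 in none. These 17 markers made up 0.0546% to 0.0782% of the control counts and 0.0534% to 0.0578% of the miR-25 counts.

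Both samples of pair A stood apart from pairs B and C. Counts of the 2 control samples B and C differed by a chi-square per degree of freedom of 4.13, whereas control A differed from them by 53.3 and 62.3. Of the 131 genes tested, whose counts averaged 20 or more over the 6 samples, 16 differed more than 2-fold between control A and the mean of controls B and C, 3 of them higher and 13 lower. CXCL12, a chemokine made by stromal cells, was 9.67-fold lower in control A, the reference gene GUSB 3.15-fold lower and the collagen gene COL1A1 2.23-fold lower, whereas ZIC2, a zinc finger factor related to the GLI proteins, was 17.7-fold higher. What sets pair A apart was not tested. As miR-25 and control of a pair shared these levels, they were compared within pairs. Fold changes of named genes at 48 h, list medians and counts of calls are given with all pairs and without pair A.

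With miR-25, FGF1, a fibroblast growth factor, rose, and PLAU, the urokinase that activates plasminogen at the cell surface, and CXCL12 fell. These were the genes called by edgeR's quasi-likelihood test with the pair as a block, 3 of 131 tested (2.29%), 1 higher (0.763%) and 2 lower (1.53%). Changes were small in general: the mean ratio over the pairs lay between 0.554 and 1.52. The median log2 fold change over all genes tested was -0.01. Each SE given with a fold change below is edgeR's, from a spread mostly pooled over genes. It is not the SE of the 3 pair ratios.

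FGF1 (NM_033136.1) had scaled counts of 478, 445 and 529 in controls A, B and C and of 761, 546 and 617 with miR-25. Every miR-25 sample was above every control sample. The ratios were 1.59, 1.23 and 1.17, and the 95% counting interval of each lay above 1 (1.40 to 1.82, 1.08 to 1.40 and 1.05 to 1.30). Its log2 fold change was 0.39 ± 0.08 (SE, n = 3 pairs; edgeR adjusted p = 9.7e-05), and 0.25 without pair A (edgeR adjusted p = 0.0461).

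PLAU (NM_002658.2) had scaled counts of 1230, 833 and 626 in controls A, B and C and of 683, 706 and 593 with miR-25. It was lower with miR-25 in each pair, but the groups overlapped, as control C was below the miR-25 samples of pairs A and B. The ratio differed between the pairs, with 0.555 in pair A, 0.848 in pair B and 0.948 in pair C, where the counting interval (0.855 to 1.05) included 1. The log2 fold change was -0.39 ± 0.07 (SE, n = 3 pairs; edgeR adjusted p = 2.8e-05). Without pair A it was -0.16 and PLAU was no longer called (edgeR adjusted p = 0.361).

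CXCL12 (NM_199168.2) had scaled counts of 529, 5147 and 5081 in controls A, B and C and of 328, 4726 and 4696 with miR-25. Each pair fell, and the level of pair A was far below that of the others in both groups. The ratios were 0.620, 0.918 and 0.924 and all counting intervals lay below 1. The log2 fold change was -0.24 ± 0.06 (SE, n = 3 pairs; edgeR adjusted p = 0.00177), and -0.12 without pair A (edgeR adjusted p = 0.0439).

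**Figure D1:**
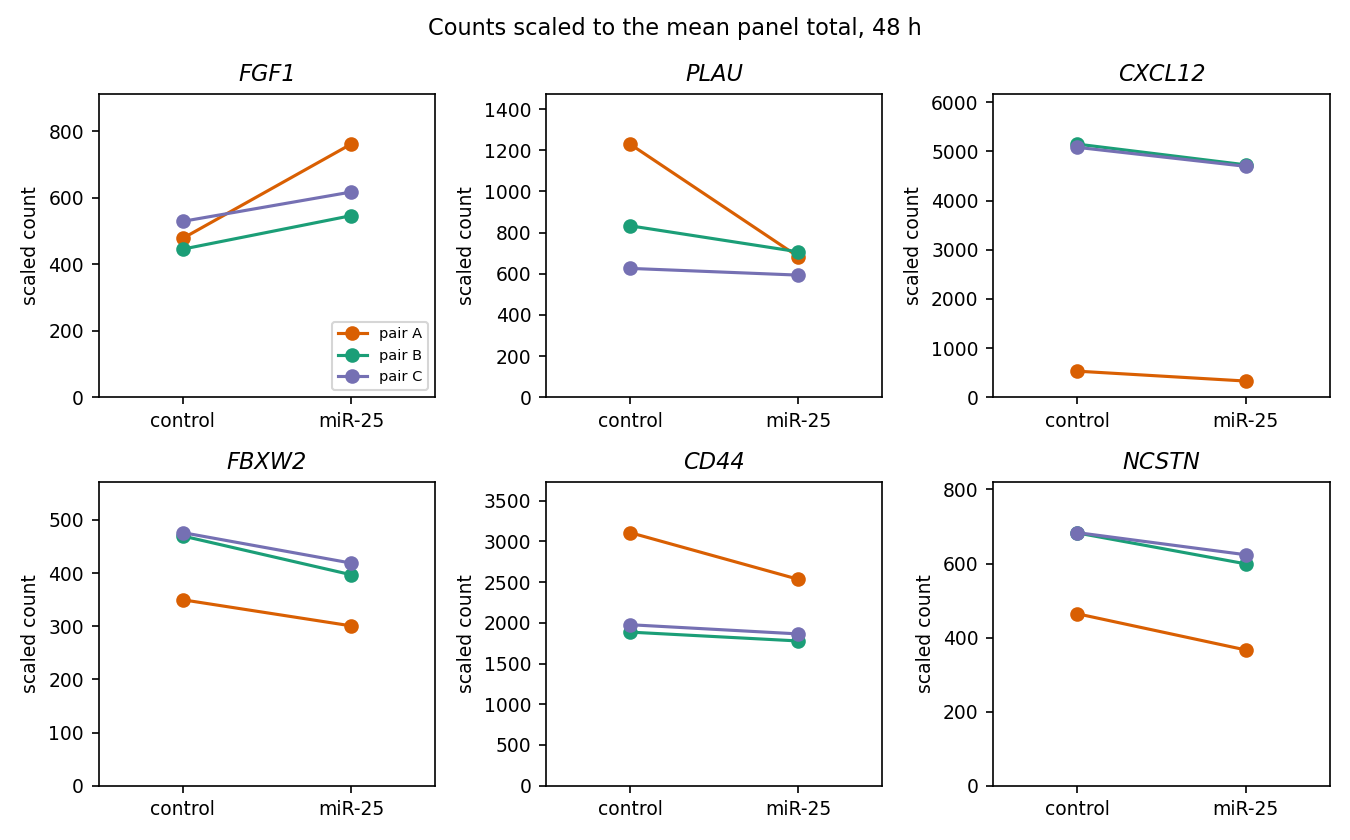
Counts at 48 h scaled to the mean panel total (y axis, from 0) in the control and miR-25 sample of each transfection pair, joined by a line, for 6 genes. FGF1 was higher with miR-25 in each pair, with 761 against 478 in pair A, and the other 5 genes were lower in each pair, with CXCL12 at 4696 to 5147 in pairs B and C and at 529 and 328 in pair A.

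These calls depended on the test. With 2 residual degrees of freedom per gene, edgeR borrowed the spread almost wholly from the other genes (378 prior degrees of freedom). The large difference of PLAU and CXCL12 between pair A and the others thus entered their standard errors little. The SE in DESeq2 and limma was 0.23 and 0.16 for PLAU, 0.18 and 0.13 for CXCL12, and 0.13 and 0.11 for FGF1. The fit without pair A left 1 residual degree of freedom per gene and took the spread wholly from the other genes. Its p-values thus leave out the spread of the gene itself. With a prior estimated robustly, or with all 12 samples in 1 fit, FGF1 alone was called (edgeR adjusted p = 0.000145 and 0.0256). DESeq2 and limma called 0 genes, with smallest adjusted p-values of 0.264 (FGF1) and 0.0832 (JAG2), and had 1 and 16 genes at an unadjusted p under 0.05. An exact sign-flip test of 3 pairs cannot go below p = 0.25. The labels do not say that the samples came from separate cultures beyond separate transfections of 1 line. The p-values thus rest on the spread between these samples only, which the main fit mostly pooled over genes.

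At an unadjusted p under 0.05 edgeR listed 14 of the 131 genes (10.7%), 6 higher (4.58%) and 8 lower (6.11%). Scaling to the positive control probes in place of the panel total raised the median log2 fold change of all genes to 0.27 and gave 48 genes higher and 0 lower at this limit, with log2 fold changes of 0.68 for FGF1, -0.10 for PLAU and -0.01 for CXCL12, so that directions here are relative to the panel total. Without pair A, 9 genes reached this limit (6.87%) and 2, FGF1 and CXCL12, were called (1.53%). In all 3 pairs, 23 genes were above 1 (17.6%) and 25 below 1 (19.1%), and in pairs B and C 33 were above 1 (25.2%) and 44 below 1 (33.6%). Groups did not overlap for 5 genes that were higher with miR-25 (3.82%) and for 0 that were lower (0.0%). The 5 were FGF1, WNT3, NUMBL, DTX2 and DLL3, of which DTX2 and DLL3 are named after their values were seen.

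**Figure D2:**
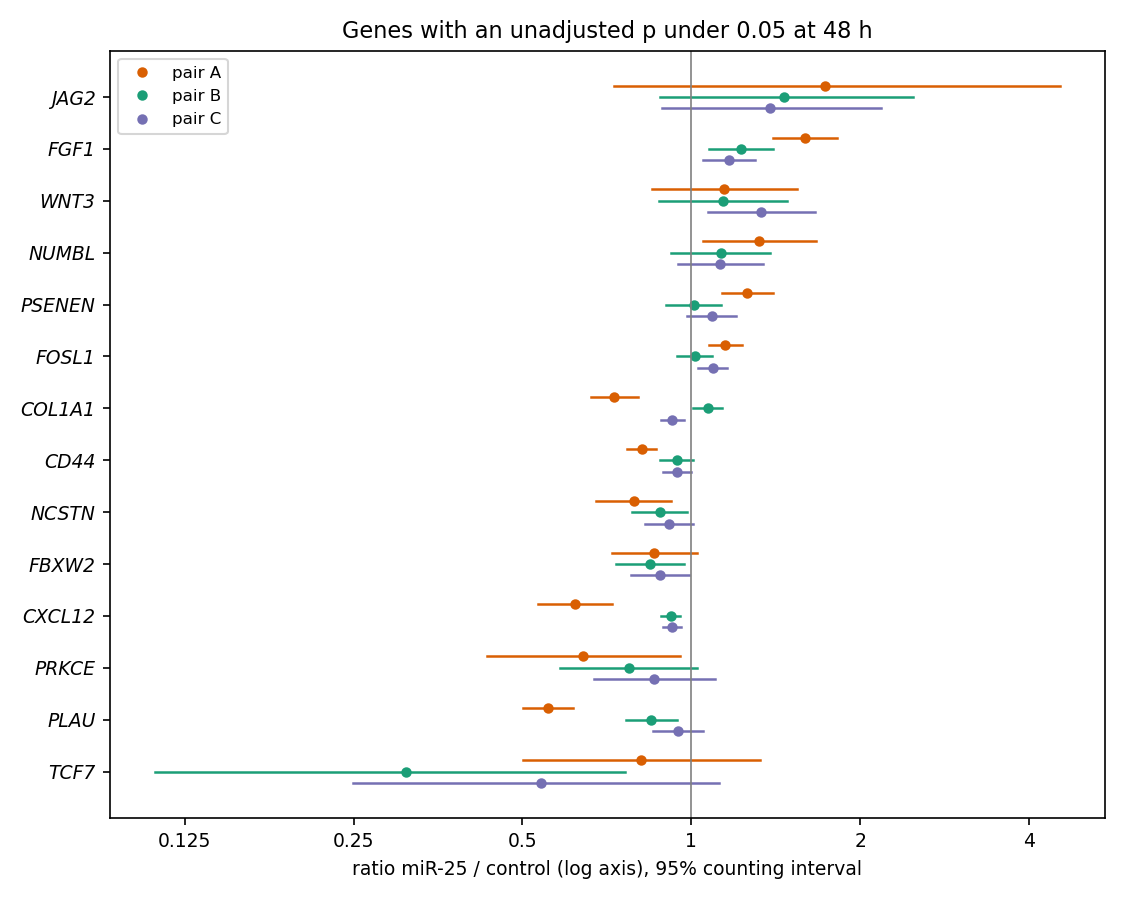
Ratio of the scaled count with miR-25 to that of the control in pairs A, B and C (x axis, log scale) with its 95% counting interval, for the 14 genes with an unadjusted p under 0.05 at 48 h, ordered by fold change. FGF1 lies above 1 and CXCL12 below 1 with all 3 intervals, COL1A1 is on both sides of 1, and the intervals of JAG2 and TCF7 are the widest.

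The Notch list held 43 panel genes, of which 38 were tested and 0 were called, next to 3 of all 131 genes tested (2.29%). At an unadjusted p under 0.05, 3 were higher and 1 lower, next to 6 (4.58%) and 8 (6.11%) of the 131. In all pairs, 9 were above and 6 below 1, next to 23 (17.6%) and 25 (19.1%). Without pair A, 1 was higher and 1 lower at an unadjusted p under 0.05, next to 3 and 6 of the 131. In pairs B and C, 9 were above and 13 below 1, next to 33 (25.2%) and 44 (33.6%). The median log2 fold change was 0.00 with all pairs and -0.01 without pair A, next to -0.01 for all genes. Among the ligands, JAG2 had the highest fold change of the genes tested, with scaled counts of 12, 29 and 30 in controls and 20, 43 and 42 with miR-25. It was higher in each pair, by 1.73, 1.46 and 1.38 times, but rested on 8 to 53 counts per sample and each counting interval included 1 (log2 fold change 0.54 ± 0.19, SE; edgeR adjusted p = 0.202), and was 0.50 on that scale without pair A. JAG1, counted 114 to 588 times per sample, had ratios of 1.06, 0.932 and 0.985 (log2 fold change -0.03, and -0.06 without pair A).

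Among the Notch receptors, NOTCH1 had scaled counts of 85, 66 and 68 in controls and of 63, 47 and 67 with miR-25. NOTCH3 had 37, 50 and 32 in controls and 23, 35 and 31 with miR-25. Both were lower in each pair, but hardly so in pair C, where the ratios were 0.982 and 0.962, and the groups overlapped. The log2 fold changes were -0.29 ± 0.15 for NOTCH1 (SE; edgeR adjusted p = 0.470) and -0.39 ± 0.18 for NOTCH3 (SE; edgeR adjusted p = 0.466), and -0.22 and -0.30 without pair A. NOTCH2, the receptor with the most counts here, had ratios of 1.09, 1.02 and 0.911, and its log2 fold change went from 0.00 to -0.07 without pair A.

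Of the 7 proteases that process Notch, NCSTN and PSENEN, both subunits of γ-secretase, went opposite ways. NCSTN had scaled counts of 464, 683 and 683 in controls and 367, 599 and 624 with miR-25, thus was lower in each pair (0.790, 0.878 and 0.913). PSENEN had 804, 656 and 613 in controls and 1012, 663 and 667 with miR-25, with most of the difference in pair A (1.26, 1.01 and 1.09). Neither was called (edgeR adjusted p = 0.173 and 0.293). Without pair A the log2 fold change of NCSTN went from -0.21 to -0.16 and that of PSENEN from 0.16 to 0.07. ADAM17, which makes the first activating cut, had ratios of 0.749, 0.914 and 1.06, that is lower in pair A and not in pair C (edgeR adjusted p = 0.653), and its log2 fold change went from -0.13 to -0.01 without pair A.

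Among the modulators of Notch, NUMBL, a relative of the inhibitor Numb, had scaled counts of 169, 196 and 202 in controls and of 223, 221 and 228 with miR-25, without overlap of the groups (log2 fold change 0.24, and 0.17 without pair A; edgeR adjusted p = 0.293 with all pairs). In the nucleus, RBPJ, the DNA-binding partner of the Notch intracellular domain, had ratios of 0.854, 0.996 and 0.921 (log2 fold change -0.11, and -0.07 without pair A; edgeR adjusted p = 0.478 with all pairs). Of the 16 nuclear partners 0 reached an unadjusted p under 0.05, next to 14 of the 131 genes (10.7%). HES1, the Notch target on the panel, had ratios of 0.826, 1.35 and 0.971, on both sides of 1 (log2 fold change 0.09, and 0.16 without pair A).

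**Figure D3:**
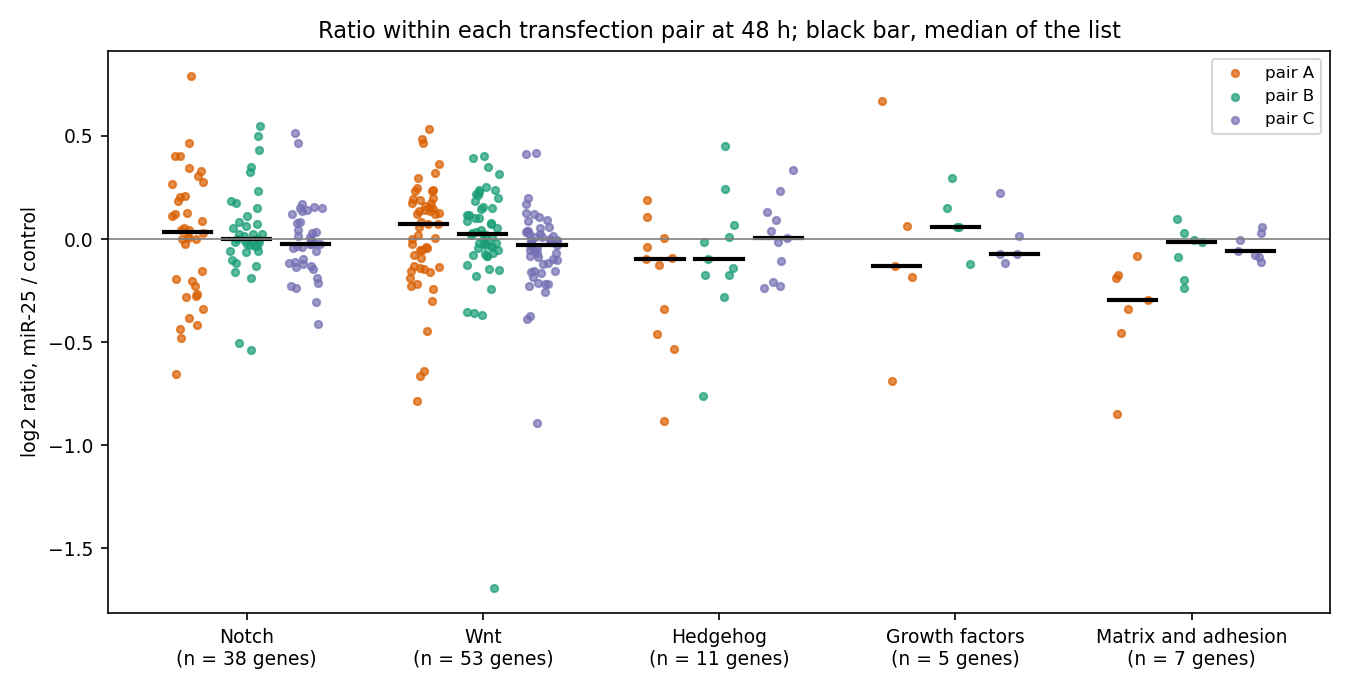
Log2 ratio of miR-25 to control (y axis) of each tested gene of the 5 lists in pairs A, B and C at 48 h; each point is a gene and the black bar is the median of the list. The medians of the Notch and Wnt lists lie near 0 in each pair, and that of the matrix and adhesion list is -0.29 in pair A and -0.01 and -0.06 in pairs B and C.

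The Wnt list held 78 panel genes, of which 53 were tested and 0 were called, next to 3 of all 131 genes tested (2.29%). At an unadjusted p under 0.05, 2 were higher and 3 lower, next to 6 (4.58%) and 8 (6.11%) of the 131. In all pairs, 8 were above and 8 below 1, next to 23 (17.6%) and 25 (19.1%). Without pair A, 1 was higher and 2 lower at an unadjusted p under 0.05, next to 3 and 6 of the 131. In pairs B and C, 14 were above and 18 below 1, next to 33 (25.2%) and 44 (33.6%). The median log2 fold change was -0.01 with and without pair A. Of 21 ligands and secreted inhibitors 3 were tested. WNT3, a ligand of the β-catenin branch, had scaled counts of 110, 118 and 121 in controls and of 126, 134 and 162 with miR-25, without overlap (log2 fold change 0.28 ± 0.12, SE; edgeR adjusted p = 0.278; 0.32 without pair A). WNT5A, a ligand of the β-catenin-independent branch, had 758, 1054 and 997 in controls and 556, 1067 and 1059 with miR-25. Only pair A was lower, and the log2 fold change turned from -0.09 to 0.06 without it.

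Of the Frizzled receptors, FZD2 was higher in each pair (1.40, 1.27 and 1.04; log2 fold change 0.23, and 0.18 without pair A; edgeR adjusted p = 0.470 with all pairs). FZD1 had ratios of 0.896, 0.944 and 1.09 and FZD8 of 0.630, 1.08 and 1.12, so neither kept a side of 1, and without pair A their log2 fold changes went from -0.04 to 0.02 and from -0.01 to 0.15. CTNNB1, which encodes β-catenin, was within 0.963 to 1.02 (log2 fold change -0.02, and -0.01 without pair A).

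FBXW2, a substrate receptor of an SCF ubiquitin ligase, had the most even ratios of the 14 genes, 0.860, 0.845 and 0.880. Its scaled counts were 350, 470 and 476 in controls and 301, 397 and 419 with miR-25, lower in each pair with overlapping groups. The log2 fold change was -0.21 ± 0.09 (SE; edgeR adjusted p = 0.208), and -0.21 without pair A too. TCF7, a nuclear partner of β-catenin, had the lowest fold change of the genes tested, with scaled counts of 50, 22 and 19 in controls and 41, 7 and 10 with miR-25. Pairs B and C were near the background there, with 7 and 13 counts with miR-25 and a background of 5.52 and 8.40 (log2 fold change -0.71 ± 0.21, SE; edgeR adjusted p = 0.149). Without pair A it was -1.21 (edgeR adjusted p = 0.0534).

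PRKCE, a protein kinase C of the calcium-independent class, had scaled counts of 82, 124 and 117 in controls and of 53, 96 and 101 with miR-25, and was lower in each pair (log2 fold change -0.36, and -0.29 without pair A; edgeR adjusted p = 0.174 with all pairs). FOSL1, an AP-1 subunit listed with the Wnt targets, was higher by 1.15, 1.01 and 1.09 times (log2 fold change 0.12, and 0.08 without pair A; edgeR adjusted p = 0.411 with all pairs). The other 6 Wnt targets, among them MYC and cyclin D1 (CCND1), had log2 fold changes of -0.09 to 0.12. None of them reached an unadjusted p under 0.05, next to 14 of the 131 genes (10.7%).

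The Hedgehog list had 11 of 19 genes tested, 0 called and 0 at an unadjusted p under 0.05, next to 3 (2.29%) and 14 (10.7%) of all 131. Its 3 ligands were too low to be tested. The median log2 fold change was -0.07 with all pairs and -0.08 without pair A. In all pairs, 2 genes were above and 4 below 1, next to 23 (17.6%) and 25 (19.1%) of the 131. In pairs B and C, 4 were above and 5 below 1, next to 33 (25.2%) and 44 (33.6%). SMO, the signal transducer at the membrane, had ratios of 1.08, 0.937 and 0.853, and its log2 fold change went from -0.08 to -0.17 without pair A. RAB23, a small GTPase that restrains the pathway, had the lowest fold change, with 41, 31 and 46 scaled counts in controls and 22, 26 and 42 with miR-25 (log2 fold change -0.34 ± 0.18, SE; edgeR adjusted p = 0.554). Without pair A its log2 fold change was -0.17. The transcription factors GLI1 and GLI2 had ratios of 0.790, 1.37 and 1.10 and of 1.14, 1.18 and 1.03. GLI2 was above 1 in each pair and GLI1 was not, with as few as 14 counts in control A, and without pair A their log2 fold changes went from 0.18 to 0.26 for GLI1 and from 0.15 to 0.12 for GLI2.

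Of the 10 genes of the growth factor list, which also holds a chemokine, a receptor and a mediator, 5 were tested. The members were chosen with earlier results of these data known. FGF1 and the chemokine CXCL12, 2 of the 3 called genes, belonged to this list. Both were called with and without pair A, next to 3 of all 131 genes (2.29%) with it and 2 (1.53%) without it. The other members did not follow them. FGF2 had ratios of 0.879, 1.04 and 1.01, the receptor FGFR1 1.04, 1.11 and 0.950, and SMAD4, the shared mediator of TGF-β and BMP signals, 0.913, 1.04 and 0.951. Without pair A their log2 fold changes went from -0.04 to 0.03, from 0.04 to 0.02 and from -0.04 to -0.01. The median log2 fold change of the list was -0.04 with all pairs and 0.02 without pair A.

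The matrix and adhesion list had 7 of 11 genes tested, all with a log2 fold change below 0, next to 75 of the 131 genes. Without pair A this held for 4 of the 7, next to 72 of the 131, and BMP1, CDH2 and CTNNA1 were at 0.01, 0.03 and 0.01. PLAU was called, next to 2 genes called lower of the 131 (1.53%). CD44 and COL1A1 also had an unadjusted p under 0.05, next to 8 genes lower at that limit (6.11%). Without pair A, 2 of the list were lower at that limit, next to 6 of the 131, and PLAU was not called. CD44, the receptor for hyaluronan, had scaled counts of 3109, 1886 and 1977 in controls and of 2535, 1778 and 1864 with miR-25, lower in each pair (0.815, 0.942 and 0.943; edgeR adjusted p = 0.149), and its log2 fold change went from -0.16 to -0.09 without pair A. COL1A1 had 1168, 2284 and 2930 in controls and 852, 2443 and 2712 with miR-25. It was lower in pairs A and C and higher in pair B (0.730, 1.07 and 0.925; edgeR adjusted p = 0.271), and without pair A its log2 fold change went from -0.14 to -0.02. N-cadherin (CDH2) and α-catenin (CTNNA1) had ratios of 0.885, 0.990 and 1.04 and of 0.946, 1.02 and 0.998. The median log2 fold change of the list was -0.14 with all pairs and -0.02 without pair A, so most of it came from pair A.

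**Figure D4:**
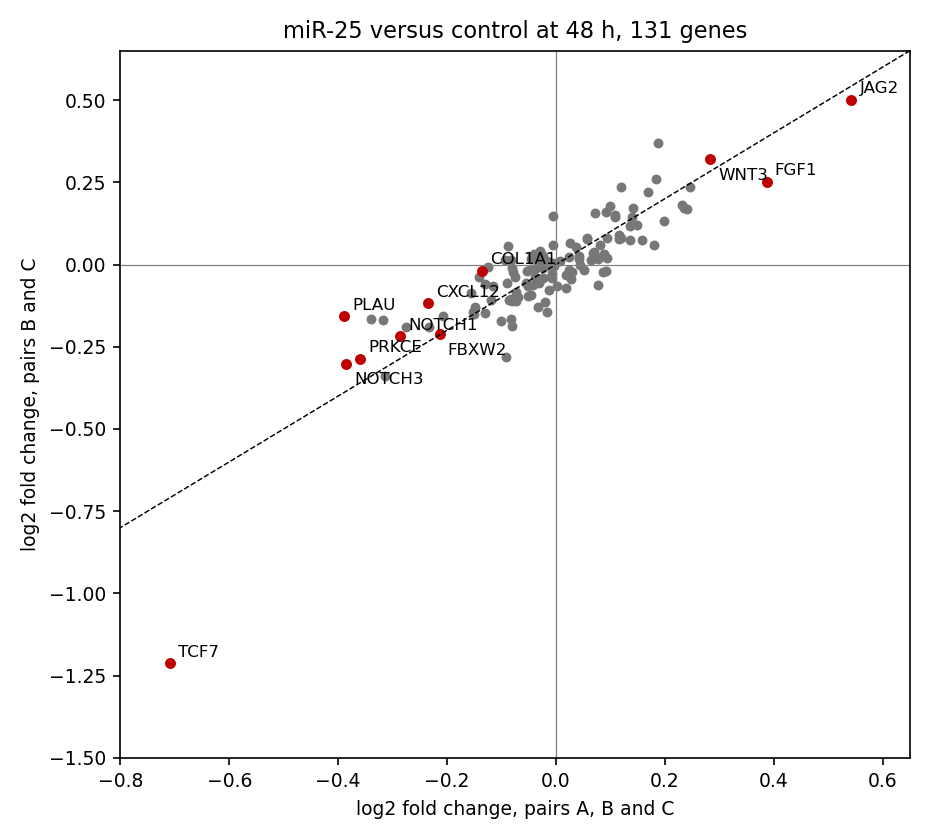
Log2 fold change at 48 h from pairs A, B and C (x axis) against that from pairs B and C alone (y axis) for the 131 genes tested; the dashed line marks equal values and red points are named genes. FBXW2, JAG2 and WNT3 lie near the line, PLAU goes from -0.39 to -0.16, COL1A1 from -0.14 to -0.02, and TCF7 from -0.71 to -1.21.

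The pairs were alike in part only. The median size of the log2 ratio was 0.164 in pair A, 0.0857 in pair B and 0.0873 in pair C, and 40, 16 and 17 of the 131 ratios had a 95% counting interval that did not include 1. Across genes, which are no independent replicates, the log2 ratios had a Pearson correlation of 0.39 between pairs A and B, 0.15 between A and C and 0.38 between B and C, with 82, 68 and 77 genes on the same side of 1. Pair A, with the lowest transfection efficiency and miR-25 level, thus had the largest ratios. With 3 pairs a relation to either measure cannot be tested.

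The reference genes of the panel, meant for normalisation, varied as follows. GAPDH, 29.1% to 33.4% of the counts, had ratios of 1.02, 0.988 and 1.04, and TUBB and CLTC stayed within 0.957 to 1.07. HPRT1 was higher (1.15) and PGK1 lower (0.877) in pair A, and GUSB lower in pair C (0.890). None of the 6 was called.

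Whether the response at 48 h differed from that at 24 h was tested in 1 fit of all 12 samples. For 0 of the 131 genes did the difference pass (0.0%), and 9 had an unadjusted p under 0.05 (6.87%). FGF1 was nearest, with ratios of 0.950, 1.00 and 1.00 at 24 h and a difference of 0.40 ± 0.09 in log2 fold change (SE; edgeR adjusted p = 0.114). The PLAU ratios at 24 h were 1.04, 0.983 and 1.11 and the difference was -0.45 ± 0.14 (SE; edgeR adjusted p = 0.433), and FBXW2 had 0.997, 0.999 and 1.03 at 24 h and a difference of -0.23 ± 0.08 (SE; edgeR adjusted p = 0.433). CXCL12 was already below 1 at 24 h (0.989, 0.946 and 0.876), and its difference was -0.11 ± 0.09 (SE; edgeR adjusted p = 0.827). With pair A of 48 h left out, the differences were 0.27 for FGF1, -0.22 for PLAU, -0.22 for FBXW2 and -0.02 for CXCL12. Again 0 genes passed.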

How the data were processed

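The authors deposited raw counts per probe of the nCounter Stem Cell Panel (50 ng RNA hybridised at 65 °C for 16 h), read with nSolver 3.0, before background correction or scaling. Genes were named from the panel sheet of the study (193) or RefSeq (6). Control probes were left out of the totals. Counts of the 6 samples were analysed with edgeR 4.0.16 (R 4.3.3): quasi-likelihood test, panel total as library size, transfection pair as block, a mean of at least 20 counts, Benjamini-Hochberg adjustment over all 131 genes and a limit of 0.05. The difference from 24 h used all 12 samples. Scaled counts are counts divided by the sample total times the mean total of the 6 samples. Background was the mean of the 8 negative probes plus 2 SD. Of the 199 genes, 133 were above it in all 6 samples, 27 in some and 39 in none. Counting intervals (95%, exact) cover counting error only. The SE was the size of the log2 fold change over the root of edgeR's F statistic. For the low-count genes NOTCH3, TCF7, JAG2 and RAB23 this SE was smaller than their p-values imply. The 68 genes not tested had a mean of at most 16.3 counts.

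Groups and pair letters were taken from the sample titles. The letters, and the transfection efficiency shared by a pair in the labels, were taken to pair the samples. Deviations of the samples of a pair from their group means correlated at 0.936, 0.882 and 0.839. As pair A stood apart in both groups, the deviations of B and C largely mirror those of A. These correlations therefore cannot tell the pairing of B and C from the opposite pairing, and mismatched pairs were not compared. Genes named were those at an unadjusted p under 0.05 or called without a pair, the highest and lowest of each list, a set of Notch, Wnt, Hedgehog, growth factor and matrix names, and the reference genes; ZIC2, BMP1, CD4, CCND1, MYC, MME, CTBP2, PPP2R5C, DTX2 and DLL3 are named outside this rule. The members, lists and tests were chosen with earlier results of these data known. Alternatives were other scalings (TMM, DESeq2 size factors, reference genes, total without GAPDH, positive probes), no filter and a mean of at least 100 counts, background subtraction, all 12 samples in 1 fit, no block, each pair left out, DESeq2 1.42.0 and limma 3.58.1 (pseudocount 1). The fit was tested on simulated data with the same spread for every gene and the same change in each pair. That simulation cannot show how the fit handles genes whose pairs differ, such as PLAU and CXCL12. The robust prior, and leaving out pairs from the fit of all 12 samples, were added after the data were seen.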

Additional observations from a re-analysis of the deposited data

How the results depend on the processing

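The count of 3 called genes was unchanged in number with TMM, reference gene scaling and background subtraction. It was 0 with DESeq2 size factors, with the total without GAPDH, with DESeq2, with limma and with no replicate block (1 gene at an unadjusted p under 0.05), and 1 with all 12 samples in 1 fit and with the robust prior. It was 2 (FGF1 and JAG2) with positive probe scaling, which moved the median log2 fold change of all genes to 0.27, 2 (FGF1 and PLAU) at a mean of at least 100 counts, where CXCL12 had an edgeR adjusted p of 0.0985, and 4 without a filter. It was 2 to 3 with each pair left out in turn, where the spread came wholly from the other genes. It was 1 to 2 when a pair was left out of the fit of all 12 samples. FGF1 was higher and PLAU and CXCL12 lower, relative to the median of all genes, under every alternative run. For the difference from 24 h the count of 0 became 1 (FGF1) with TMM and with no filter (edgeR adjusted p = 0.0449 and 0.0233). The median log2 fold change of the Notch list was -0.0084 to 0.042 with each pair left out, that of the Hedgehog list was 0.057 at a mean of at least 100 counts, and the correlation of pairs B and C was 0.091 there, against 0.38. The cause of these differences was not tested.

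Among named genes near 0, the log2 fold change of NOTCH2 became -0.010 with TMM, -0.019 with DESeq2 size factors and -0.026 with reference gene scaling, that of FZD8 0.0082 with the total without GAPDH, 0.0072 with background subtraction and 0.0011 with all 12 samples, that of GAPDH -0.0034 with reference gene scaling and that of CLTC 0.0018 with the total without GAPDH. With each pair left out in turn, the sign also turned for CTNNA1 (-0.041 to 0.012), NOTCH2 (-0.066 to 0.075), JAG1 (-0.056 to 0.017), HES1 (-0.11 to 0.23), WNT5A (-0.20 to 0.056), FZD1 (-0.12 to 0.023), FZD8 (-0.15 to 0.15), SMO (-0.17 to 0.00028), FGF2 (-0.086 to 0.032), FGFR1 (-0.0089 to 0.11), CDH2 (-0.097 to 0.026), GUSB (-0.097 to 0.046) and CLTC (-0.037 to 0.020).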
